A study of Nothobranchius furzeri with 6 samples.

Results

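The rows nfu-mir-144 and nfu-mir-451, called mir-144 and mir-451 below, are the 2 members described here, out of 324 features in the deposited table of small RNA counts. They were chosen by exact row name, with the prefix nfu- ignored, so that mir-1444, a different name, was not included. Brain tissue was taken from Nothobranchius furzeri, the turquoise killifish, an annual fish of very short life span that serves as a model of ageing. All 6 libraries came from males of the strain MZM-04/10p, a laboratory line of wild origin, at an age of 39 weeks, with no treatment or altered allele named in the labels. They form 1 group, so the data give levels, their spread and the relation between rows, while ages, sexes or strains cannot be compared. The labels carry a code for each library without stating that each came from a separate animal. The p-values therefore measure the spread between these samples, which may be technical.

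In vertebrates the genes of miR-144 and miR-451 lie next to each other and are transcribed together, driven in red cell precursors by the erythroid factor GATA1. Their maturation differs: the precursor of miR-144 is cut by Dicer, whereas that of miR-451 is too short for Dicer and is cut by Argonaute 2. In zebrafish, miR-451 promotes red cell maturation, and miR-144 acts on globin synthesis and represses Dicer itself in maturing red cells. Red blood cells of fish keep their nucleus, and both miRNAs are commonly read as blood markers in solid tissue. Whether blood was removed from the brains is not given in the sources used here. In bulk tissue, fewer cells of a type and less RNA per cell cannot be told apart.

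Library totals ranged from 11924483 to 16597229 counts. A floor of 3 counts corresponded to 0.173 to 0.256 CPM, the count per library total after scaling to a common size with TMM, edgeR's trimmed-mean normalization. Exact (Clopper-Pearson) 95% intervals below cover counting error only, since reads lacking molecular identifiers do not each stand for 1 molecule. All 8 families of the neuronal list had a row, and together they held 10.7% ± 1.51 of the counts (SD, n = 6). The liver marker mir-122 stood at 9.98 CPM on average. With no library of another tissue for comparison, these values do not test the tissue label.

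The levels of both members were moderate and were lowest in the same library. The Argonaute-processed mir-451 had 461.6, 384.5, 387.2, 270.2, 159.2 and 416.5 CPM in libraries 1 to 6. It thus lay between 384.5 and 461.6 CPM in 4 libraries, lower in library 4 and lowest in library 5. Its mean was 346.6 ± 111 CPM (SD, n = 6), a 2.90-fold range. The Dicer-processed mir-144 had 163.8, 191.5, 97.1, 116.9, 32.2 and 142.8 CPM in libraries 1 to 6. Library 5 again had the lowest value, and library 2 rather than library 1 the highest. The mean of mir-144 was 124.1 ± 56.0 CPM (SD, n = 6), a 5.96-fold range.

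Counting error was small beside these differences. The 1951 counts of mir-451 in library 5 gave an exact 95% interval of 152 to 166 CPM, and the next lowest, library 4, had an interval of 261 to 280 CPM. For mir-144 library 5 held 394 counts and an interval of 29.1 to 35.5 CPM, and the next lowest, library 3, had 92.5 to 102 CPM. The depth of library 5, 12589535 counts, lay within the range of the others. Of the 214 features that averaged 10 or more counts, 41, or 19.2%, were lowest in library 5, and as many were lowest in library 1 and in library 6. Both members sharing their lowest library is therefore read against a background of 19.2% for a single row.

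**Figure D1:**
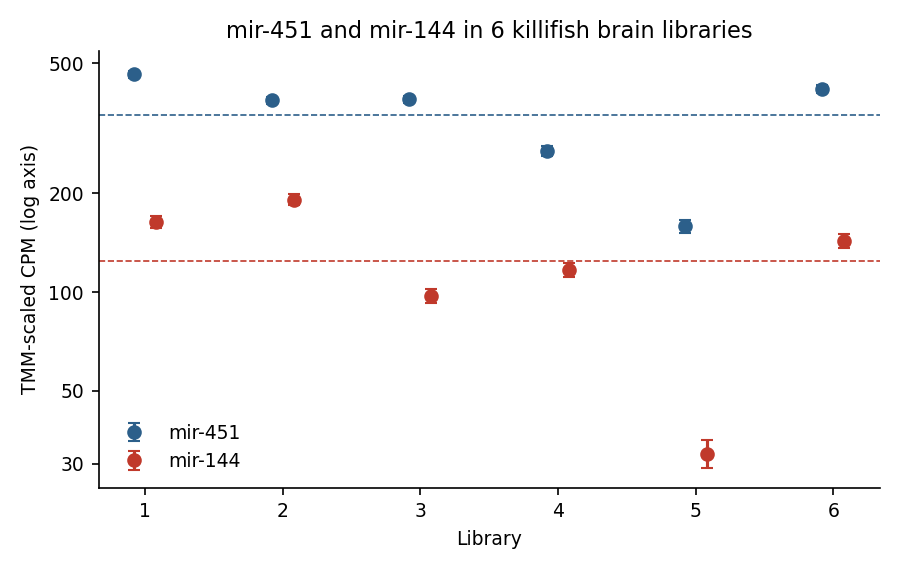
TMM-scaled CPM of mir-451 and mir-144 (vertical log axis) in libraries 1 to 6 (horizontal axis), with exact 95% counting intervals as bars and the mean over 6 libraries as a dashed line. Library 5 is the lowest for both rows, at 159.2 CPM for mir-451 and 32.2 CPM for mir-144.

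Ranked by mean CPM over all 324 features, mir-451 stood at place 68 and mir-144 at place 85. Within libraries, mir-451 held places 61 to 68 in 5 libraries and place 81 in library 5. The row mir-144 held places 80 to 85 in 5 libraries and place 105 in library 5. For each neighbour in the order, the mean log2 ratio of the member to it was smaller in size than its SD, a description and not a test. The log2 ratio of mir-451 to mir-183, 2 places above it, was -0.12 ± 0.64, and that to mir-210, 2 places below it, was 0.16 ± 0.82 (SD, n = 6 for each). The log2 ratio of mir-144 to mir-1027 above it was -0.41 ± 0.66, and that to mir-727 below it was 0.06 ± 0.96 (SD, n = 6 for each).

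The spread of mir-144 over the 6 libraries was wide for its abundance. On the log2(CPM + 1) scale its SD was 0.91, which only 11 of the 214 features exceeded, against a median of 0.27. The 20 features nearest to it in mean CPM had SDs of 0.132 to 1.435 with a median of 0.352, and 3 of them were above it: mir-205, mir-192 and the predicted feature pred_484. For mir-451 the SD was 0.57, exceeded by 23 of the 214 features. Among its 20 nearest, whose median was 0.252, mir-8 and mir-716 were above it. The places were lower on the unlogged scale. By SD over mean CPM, mir-144 stood at place 33 of 214 (45.2%) and mir-451 at place 56 (32.2%). Library 5 had a large part in these spreads. On the log2(CPM + 1) scale mir-144 had 5.051 there, against 6.616 to 7.589 in the other libraries. Without library 5 the SD of mir-144 fell from 56.0 to 37.3 CPM, and that of mir-451 from 111 to 70.8 CPM.

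Neither member passed edgeR's goodness-of-fit test, which asks whether a row varies more than a negative binomial model allows at the dispersion trend of rows of like abundance. Of 214 features, 8, or 3.74%, passed at a Benjamini-Hochberg adjusted p under 0.05, and 0 of the 2 members did. The adjusted p in this test was 0.755 for mir-144 and 0.9999 for mir-451. Its unadjusted p was 0.0802 for mir-144 and 0.446 for mir-451, neither under 0.05, while 18 of the 214 features were under it. Neither was a dispersion outlier in DESeq2, which marked 3 of the 214 features. Both exceeded pure counting noise in a Poisson index of dispersion, but 177 of the 214 features did, so this was not particular to them. Without library 5 the unadjusted p of edgeR's test was 0.792 for mir-144 and 0.903 for mir-451. With the trend refitted without the 8 called features, the adjusted p of mir-144 was 0.0181 by the same test and that of mir-451 was 0.493. That refit passed 22 features rather than 8. It left out the most variable features as judged from these same data, which tends to lower the trend, so more calls were built into it. The result for mir-144 thus depended on how the trend was drawn. Its pass in the refit is no separate support for excess variation. The main trend was fitted with the 8 called features in it, which tends to raise the trend. It stood at a coefficient of variation of 0.40 for mir-144 and 0.38 for mir-451. Failure to pass in the main fit therefore does not show ordinary variation for either member.

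**Figure D2:**
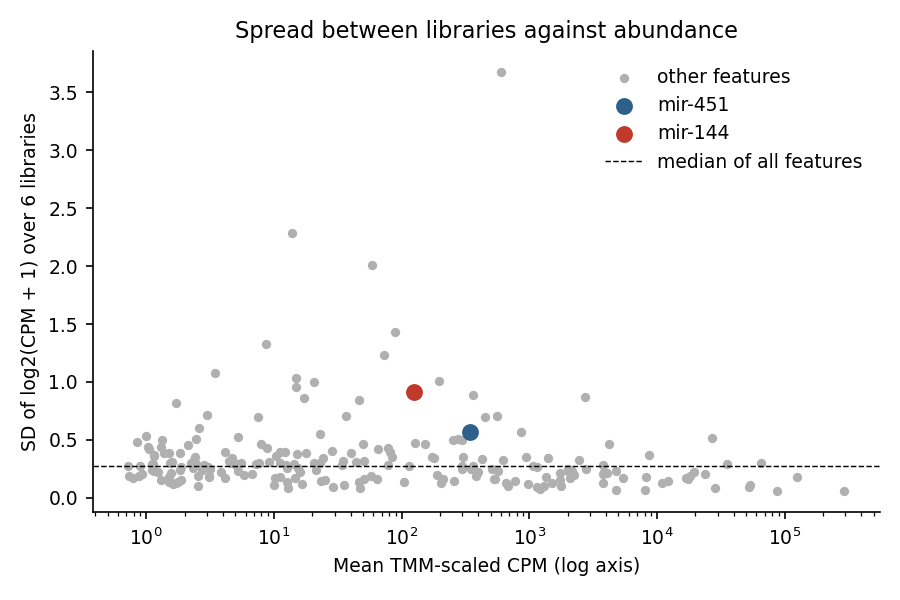
SD of log2(CPM + 1) over 6 libraries (vertical axis) against mean TMM-scaled CPM (horizontal log axis) for 214 features, each a point, with mir-451 and mir-144 coloured and the median SD of 0.27 as a dashed line. Both lie above the median, mir-144 at 0.91 and mir-451 at 0.57.

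More counts fell on mir-451 than on mir-144 in each of the 6 libraries, by a factor that differed between them. The ratio of mir-451 to mir-144 counts was 2.82, 2.01, 3.99, 2.31, 4.95 and 2.92 in libraries 1 to 6. The mean log2 ratio was 1.59 ± 0.49 (SD, n = 6), above 0 in 6 of 6 libraries. Flipping the signs of these ratios in all possible ways, an exact two-sided permutation test, gave p = 0.031, the lowest value that can be reached with this number of libraries. Adaptor ligation favours some sequences over others, and the row names carry no arm of the hairpin. The size of the ratio therefore mixes abundance with ligation. What part ligation had in the differences of the ratio between libraries was not tested.

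Expressed as a share, mir-451 made up 74.7% ± 6.13 of the summed counts of both rows (SD, n = 6). Library 5 had a share of 83.2%, its exact 95% interval being 81.6% to 84.7%, and library 3 had 80.0%, with 79.1% to 80.8%. It was lowest in library 2, at 66.8% with an interval of 65.7% to 67.8%. The shares of library 1 (73.8%, interval 72.8% to 74.8%) and library 6 (74.5%, interval 73.4% to 75.5%) could not be told apart at this depth. The share did not simply follow the level: library 4, second lowest in summed CPM, had 69.8%, while library 3, with a higher sum, had 80.0%.

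**Figure D3:**
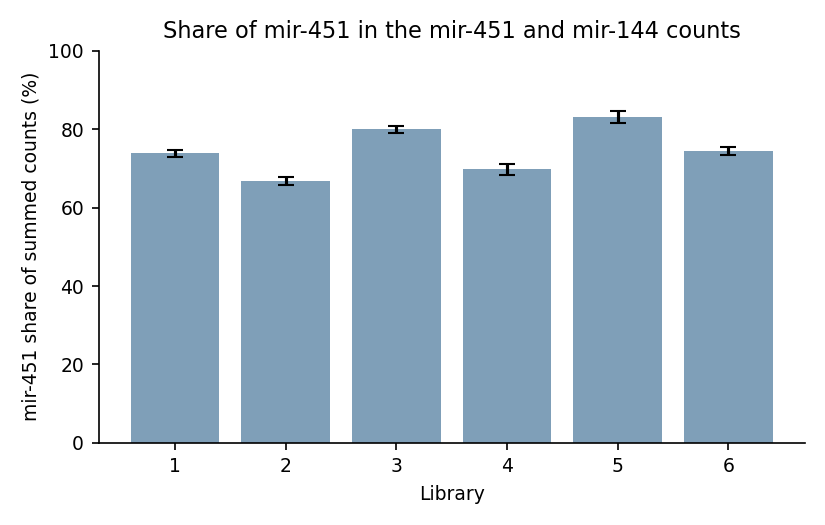
Share of mir-451 in the summed counts of mir-451 and mir-144 (vertical axis, percent) in libraries 1 to 6 (horizontal axis), with exact 95% binomial intervals as bars. Library 5 has the highest share, at 83.2%, and library 2 the lowest, at 66.8%.

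Across libraries the correlation of the 2 rows rested on library 5. Pearson's r of log2(CPM + 1) was 0.90 over 6 libraries, with an exact permutation p of 0.0486 and an adjusted p of 0.0972 over 4 relations examined. Spearman's rho was 0.54, with an exact permutation p of 0.297 and an adjusted p of 0.559. Without libraries 2 and 5, the 2 farthest from the median of mir-144, r was 0.52, and without library 5 alone it was 0.42. The order of the other 5 libraries thus differed between the rows: mir-144 was highest in library 2, and mir-451 was highest in libraries 1 and 6.

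Summed, mir-451 and mir-144 stood at 470.6 ± 160 CPM, or 0.0473% ± 0.0166 of all counts (SD, n = 6). The sum was 625.4, 576.1, 484.3, 387.2, 191.4 and 559.3 CPM in libraries 1 to 6. Library 1 had the highest sum and library 5 the lowest, a 3.27-fold range. These sums were set beside lists of families that mark 3 other kinds of cells found in brain tissue: vessel wall, white blood cells with microglia, and neurons.

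The sum of the red blood cell rows moved with the vessel wall list, though not with it alone. The rows mir-1 (r = 0.95) and mir-202 (r = 0.94), among those most like the sum, are outside that list. That list holds mir-126, a family of endothelial cells, and mir-143 and mir-145, families of smooth muscle. Its sum was 10081, 9407, 9213, 7451, 6869 and 9993 CPM in libraries 1 to 6, so that libraries 4 and 5 were lowest for both sums and library 1 highest for both. Pearson's r between the sums on the log2 scale was 0.92, with an exact permutation p of 0.00417 and an adjusted p of 0.0167 over the 4 relations. Spearman's rho was 0.94, with an exact permutation p of 0.0167 and an adjusted p of 0.0667, which did not pass. Without libraries 4 and 5, the 2 farthest from the median, r was 0.76. Leaving out library 1, 3, 4 or 5 kept r between 0.91 and 0.99, while the adjusted p rose to between 0.0667 and 0.1 in the same exact permutation test with 5 libraries. Without library 2 or library 6, r was 0.92 with an adjusted p of 0.0333 in that test, which passed. Fewer pairings exist with 5 libraries, which limits how low this p can go.

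The families of the vessel wall list did not all have the same values. Its sum was made up mostly of mir-143 (4743 CPM on average) and mir-126 (3816 CPM), while mir-145 had 276.6 CPM. The r of the sums therefore says little about mir-145. With the summed red blood cell rows, mir-126 had r = 0.95 and mir-143 had r = 0.85, and both were lowest in library 5, whereas mir-145 had r = -0.21 (n = 6 libraries, given as descriptions). The sign for mir-145 rested on library 5: without it r was 0.55 for mir-145, 0.90 for mir-126 and 0.86 for mir-143. In library 5 the endothelial mir-126 had 2718 CPM, whereas the other 5 libraries had 3362 to 4487 CPM. The smooth muscle family mir-143 had 3790 CPM there, against 3938 to 5568 CPM. By contrast mir-145 had 360.6 CPM there, within its range of 151.0 to 375.1 CPM in the others. The range over libraries was 1.65-fold for mir-126, 1.47-fold for mir-143 and 2.48-fold for mir-145, the last near the 2.90-fold range of mir-451. What part vessel content had in the levels of mir-144 and mir-451 was not tested.

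Relative to the vessel wall list, the summed red blood cell rows had a mean log2 ratio of -4.31 ± 0.43 (SD, n = 6) and were lower in 6 of 6 libraries. The exact sign-flip permutation test gave p = 0.031 and an adjusted p of 0.0469 over 3 lists. The vessel wall list held 0.885% of the counts and the summed rows 0.0473%. That sign followed from which families were listed, so the test carries no further information. The log2 ratio was -4.01 to -4.27 in 5 libraries and -5.17 in library 5. The ratio of the red blood cell rows to the vessel wall list was thus lowest in library 5, and whether that value stood apart was not tested.

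The white blood cell and microglial list was highest in the library where the red blood cell rows were lowest. Its sum was 489.4, 488.5, 435.7, 405.0, 605.5 and 542.6 CPM in libraries 1 to 6. With the summed red blood cell rows, r was -0.44, with an exact permutation p of 0.404 and an adjusted p of 0.539. Spearman's rho was -0.03, with an exact permutation p of 1.0 and an adjusted p of 1.0. Without libraries 4 and 5 r was 0.58, and without library 5 alone it was 0.83 (adjusted p = 0.183 in the exact permutation test).

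Its members went different ways in library 5. The row mir-142, a family expressed throughout the blood cell lineages, was lowest there at 116.6 CPM, against 152.0 to 225.5 CPM in the others, and had r = 0.89 with the summed red blood cell rows. The row mir-146, a family induced in inflammation, was highest there at 418.7 CPM, against 185.8 to 320.9 CPM, and had r = -0.69. Library 5 was the highest for 51 of the 214 features, or 23.8%, more than any other library. The low rows of the list were mir-223, a myeloid family, with r = 0.54, and mir-150 and mir-155, both lymphocyte families, with r = -0.44 for mir-150 and r = -0.55 for mir-155 (n = 6 libraries, given as descriptions). Without library 5 the sign turned for mir-146 (r = 0.17) and mir-150 (r = 0.05), while r was 0.78 for mir-142, 0.67 for mir-223 and -0.58 for mir-155. The mean log2 ratio of the summed red blood cell rows to this list was -0.16 ± 0.75, below 0 in 2 of 6 libraries, with p = 0.9375 and an adjusted p of 0.9375 in the exact sign-flip permutation test. It was -1.66 in library 5 and 0.14 on average without that library. The direction and the call turned with the make-up of the list: the ratio was 2.40 with medians of the members in place of sums and 0.89 without mir-146, with an adjusted p of 0.031 for each in the same exact permutation test.

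Against the neuronal list the summed red blood cell rows had a mean log2 ratio of -7.92 ± 0.73 (SD, n = 6), lower in 6 of 6 libraries. The exact sign-flip permutation test gave p = 0.031 and an adjusted p of 0.0469. The list held 10.7% of the counts and the summed rows 0.0473%. That sign followed from which families were listed, so the test carries no further information. The r of the summed rows with that list was -0.25 (exact permutation p = 0.55, adjusted p = 0.55) and rho was -0.43 (exact permutation p = 0.419, adjusted p = 0.559). Without libraries 4 and 5 r was 0.52, whereas without library 5 alone it was -0.59. The list's members went different ways, and mir-128 was its most abundant row (65311 CPM on average). With the summed rows r was 0.81 for mir-218, 0.70 for mir-124, 0.65 for mir-153 and 0.18 for mir-137. It was -0.29 for mir-128, -0.38 for mir-132, -0.40 for mir-129 and -0.63 for mir-138 (descriptions, n = 6 libraries). Without library 5, mir-218 and mir-124 had r = 0.56 and 0.61, mir-153 had 0.01, and the sign turned for mir-137 (-0.56) and mir-129 (0.14).

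**Figure D4:**
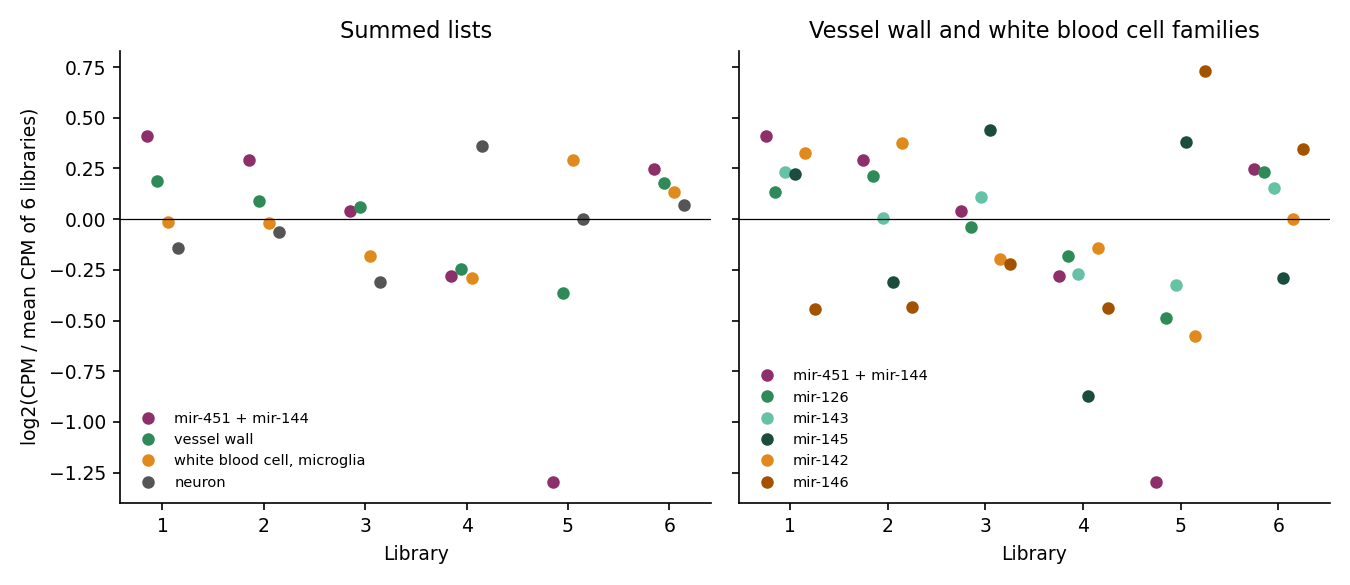
Log2 of CPM over the mean CPM of 6 libraries (vertical axis) in libraries 1 to 6 (horizontal axis), each point being 1 list or family, shifted sideways for legibility. Left, the summed red blood cell rows and the summed lists, and right, the same rows beside 3 vessel wall and 2 white blood cell families, with mir-126, mir-143 and mir-142 lowest in library 5 and mir-146 highest there.

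A further list held other families studied in red cell formation. Of 11 such families, 8 had a row of their own name: mir-15, mir-16, mir-24, mir-150, mir-155, mir-210, mir-221 and mir-223. The families miR-486, miR-191 and miR-222 matched no row by name and are not analysed here. Of the 8 rows, 1 (mir-16) was lowest in library 5, a share near the 19.2% of all features. Of the same rows, 0 passed the variation test by edgeR, adjusted or at an unadjusted p under 0.05. Of all 214 features, 8 (3.74%) passed adjusted and 18 unadjusted, so a count of 0 among 8 rows does not set them apart. The 3 rows mir-150, mir-155 and mir-223 are also in the white blood cell list.

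The family mir-16, which restrains the cell cycle, had 3223 CPM in library 5, against 3241 to 4475 CPM in the others, with r = 0.52 to the summed red blood cell rows and r = 0.09 without library 5. The hypoxia-induced mir-210 was highest in library 5 at 385.5 CPM, against 224.8 to 343.5 CPM in the others, and had r = -0.78, or -0.47 without library 5. The row mir-221, of a family that represses the receptor KIT in red cell precursors, was likewise highest there at 37259 CPM, against 15261 to 36201 CPM, and had r = -0.71, or -0.73 without library 5. These 2 highest values also stand against the 23.8% of all features that were highest in that library. The rows mir-24 (r = 0.52, and 0.67 without library 5) and mir-15 (r = 0.17, and 0.20 without library 5) lay within the range of the other libraries in library 5. These values are descriptions over 6 libraries, and several of these families are expressed widely in brain. Their median log2 SD was 0.28, close to the 0.27 of all features, and it was 0.74 for mir-144 and mir-451.

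The partner row was not the closest in profile to either member. By Pearson's r of log2(CPM + 1) over 6 libraries, the 5 rows most like mir-144 were lsy-6, a family name from nematodes, and mir-190 (r = 0.97 for each), mir-202 (0.94), mir-142 (0.93) and mir-126 (0.92), and mir-451 came at place 7 of 213. The 5 most like mir-451 were mir-1, a muscle family (0.95), mir-126 (0.94), mir-143 (0.92), mir-549 and mir-202 (0.90 for each), and mir-144 came at place 6 of 213. All of these were lowest in library 5, as 19.2% of the 214 features were. Because they were picked for high r to members that were themselves lowest there, this followed largely from the choice. The most alike to the sum were mir-126 and mir-1 (0.95 for each), mir-202 (0.94), mir-190 (0.91) and mir-34 (0.89). The median r over all features was -0.07 for mir-144 and -0.05 for mir-451.

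The order of likeness changed without library 5. Then 2 of the 5 rows nearest to mir-144, 2 of the 5 nearest to mir-451 and 3 of the 5 nearest to the sum were still among the nearest 5, and the partner fell to place 56 for mir-144 and to place 54 for mir-451. In the same 5 libraries the neuronal row mir-218 was nearest to mir-144 (r = 0.96), ahead of mir-142 (r = 0.95). The row nearest to mir-451 was then mir-143 (r = 0.98). These rows were picked as the highest of the r values over all features, each from 6 libraries, and no test was made of them.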

How the data were processed

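The 6 killifish brain libraries were prepared with a TruSeq smallRNA kit, per the labels' protocols. The authors deposited 1 table of raw counts per miRNA feature. The submitters' processing notes name SAMtools 1.3.1-9, BWA 0.7.12-r1039, Trimmomatic 0.36 and bcl2fastq 1.8.4. Not given in the sources used here are their roles, the genome build, the annotation and the handling of multiply matching reads, so no coordinates are printed. No mature sequences were used here.

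Counts were scaled with TMM (edgeR 4.0.16, R 4.3.3) and given as CPM; log2 values are log2(CPM + 1). The 214 of 324 features that averaged 10 or more counts entered an intercept-only negative binomial fit at the trended dispersion, with a goodness-of-fit chi-square adjusted by Benjamini-Hochberg at 0.05. DESeq2 1.42.0 served as an alternative. Ratios and correlations used exact permutation tests by full enumeration in numpy 2.4.6, and binomial intervals came from scipy 1.17.1. The variation, ratio and correlation tests were also run on simulated data. For the variation test those counts were drawn at the fitted trend, so they could not show whether the trend suited the real rows. Replicate numbers follow accession order and only name libraries.

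Members, lists and tests were chosen with earlier results of these data known. Named rows were the list members, the 5 rows of highest r to each member and to their sum, and the 2 rows above and 2 below each member in rank. Families named as exceeding a member's spread, the counts of rows lowest or highest in library 5 and the profiles without library 5 were chosen after their values were seen.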

Additional observations from a re-analysis of the deposited data

How the results depend on the processing

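DESeq2 size factors and plain CPM moved neither member's mean by 1 SD; without mir-181 in the total, mir-451 stood at 490.7 CPM. In the variation test both members stayed unpassed by edgeR with other scalings, filters, a common dispersion and any library left out. With the trend refitted without the called features, a choice that favours more calls, 22 features passed and mir-144 had an adjusted p of 0.0181 by edgeR's test. By a Poisson index 177 features passed, with both members at an adjusted p of 3.75e-300, the limit of the calculation. DESeq2 marked 3 features. The sum of the red blood cell rows over the white blood cell list had a log2 ratio of 2.40 with list medians and 0.89 without mir-146, the most abundant member (adjusted p = 0.031 for each in the exact permutation test); the size and members of a list set this value. With 1 library left out, the log2 ratio of mir-451 to mir-144 was 1.45 to 1.71, and that of the sum to the vessel wall list was -4.37 to -4.14, to the neuronal list -8.04 to -7.67 and to the white blood cell list -0.26 to 0.14. With 5 libraries the sign-flip test cannot give a p under 0.0625, so it could not pass. Pearson's r of the sum with the vessel wall list was 0.91 to 0.99, and with the white blood cell list -0.70 to 0.83, with rho -0.30 to 0.70; with the neuronal list r was -0.59 to -0.16. With plain CPM the adjusted p of r with the vessel wall list was 0.0333 in the exact permutation test, and rho was 0.77 with an adjusted p of 0.411. No paired comparison of groups was possible because there is 1 group, while the ratios between rows were taken within each library. None of 32 levels, shares and ratios examined stood apart from the other 5 libraries by Dixon's criterion for 6 values. Just short of its limit were mir-128 in library 4 (Dixon's Q = 0.624) and the log2 CPM of mir-144 in library 5 (0.617). The only ratio among the 32 was that of mir-451 to mir-144. The log2 ratios of the sum to the lists were not examined in this way. For the vessel wall list the value was -5.17 in library 5, against -4.27 to -4.01 in the other libraries. For the white blood cell list it was -1.66, against -0.06 to 0.35, and for the neuronal list -9.13, against -8.48 to -7.28. Whether these library 5 values stood apart was therefore not tested, and the absence of an outlier among the 32 does not extend to them.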
